A study of Rattus norvegicus with 9 samples.

Results

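Clathrin and the proteins that load and release its coat were followed through 10 rat genes in brains after ischemia/reperfusion. The genes were the clathrin heavy chain (Cltc), both light chains (Clta and Cltb), 4 subunits of the adaptor AP-2 (Ap2a1, Ap2a2, Ap2b1, and Ap2m1), the epsins Epn1 and Epn3, and dynamin 1 (Dnm1). They were chosen by name because endocytosis is a process that the study singled out, and they were 10 of the 17826 gene symbols on the array. All 10 were on the array, with 13 of its 30367 probes, and each of the 13 probes was well above background on all 9 arrays. Where a gene had 2 probes, the brighter one stands for the gene, and the other is called the dimmer probe.

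The data are 9 one-color Agilent arrays of Cy3-labeled RNA, 1 per rat, from male Sprague Dawley rats. In the I/R group (3 arrays), a nylon suture closed the right middle cerebral artery for 2 h and was then withdrawn, and the infarcted hemisphere was taken at day 14. The DHI group (3 arrays) had the same occlusion and reperfusion and then Danhong injection, a preparation of the herbs Danshen and Honghua, into the tail vein every day until day 14. The Sham group (3 arrays) had the external carotid artery exposed, with no filament passed into it, and received solvent. The ages of the rats are not given in the sources used here, and the treatment of I/R rats with solvent is not stated there.

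Clathrin triskelia, each built of heavy chains with light chains attached, polymerize into a cage on the inner face of the plasma membrane. AP-2 links the cage to the membrane lipid PIP2 and to cargo receptors, epsins help to bend the membrane, and dynamin cuts the neck of the bud. In neurons this route retrieves synaptic vesicle membrane after release, and dynamin 1 is the form of dynamin that neurons express most, whereas glia and other cells use the same coat for nutrient and signaling receptors.

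The probes define what was measured, so a stretch of each is printed as read from the array files, 5′ to 3′, with its place in the rat genome build rn4. Capitals mark AATAAA, the hexamer that directs polyadenylation, which 8.39% of all 30367 probes contain and which 2 of the 13 probes contain, those of Ap2b1 and Clta. Exon and UTR annotation of rn4 was not used here. The dimmer Ap2b1 probe has 60 bases but its coordinates span a longer stretch of chromosome 10, unlike the brighter probe, which lies in 1 block farther along the gene.
Cltc probe, chr10:74976913-74976972 -, bases 1 to 30: gagtgtacagaagagagaattcaaacaaga
Clta probe, chr5:60502373-60502432 +, bases 31 to 60: tgcattattctgagAATAAAtttctgtttc
Cltb probe, chr17:16081218-16081277 +, bases 1 to 30: gactgtccctcctgatgtatttttcttggc
Cltb dimmer probe, chr17:16080932-16080991 +, bases 1 to 60: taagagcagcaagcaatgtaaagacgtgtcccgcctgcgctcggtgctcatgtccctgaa
Ap2a1 probe, chr1:95373895-95373954 -, bases 1 to 30: attttatttttgttcatctgctgctgttta
Ap2a2 probe, chr1:201813377-201813436 +, bases 1 to 30: cagtcctgtggttcaacctacaaattaaag
Ap2b1 probe, chr10:71487939-71487998 +, bases 30 to 59: tgtgtattcaccAATAAActcatttacaca
Ap2b1 dimmer probe, chr10:71474029-71481376 +, bases 1 to 60: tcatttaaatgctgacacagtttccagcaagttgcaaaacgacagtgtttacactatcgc
Ap2m1 probe, chr11:82585493-82585552 -, bases 1 to 30: tccctactctgctttgggatagtatgagct
Epn1 probe, chr1:67480019-67480078 -, bases 1 to 30: gcctggttcagctggcttccccaatttctg
Epn3 probe, chr10:83129024-83129083 -, bases 1 to 30: tgataatcgcttggtaatgagtggttagtc
Epn3 dimmer probe, chr10:83130965-83131024 -, bases 1 to 60: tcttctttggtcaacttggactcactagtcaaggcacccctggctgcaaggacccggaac
Dnm1 probe, chr3:11439173-11439232 -, bases 1 to 60: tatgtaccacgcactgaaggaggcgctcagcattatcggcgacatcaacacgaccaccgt

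Promoters were read because several members moved together. RefSeq promoter sequences (build GRCr8, the 250 bases before the start of the gene) were found for 9 of the 10 members, those other than Epn3. Both strands were searched for the GC box GGGCGG, the cAMP response element TGACGTCA, and the CCAAT box CCAAT. The cAMP response element was present in Cltb and Ap2b1 and in 1.59% of the 33469 promoters searched. The GC box was present in 6 of the 9 members (30.5% of all promoters) and the CCAAT box in 2 (34% of all). The promoters of Cltb and Ap2b1 are shown as those with the response element, and that of Dnm1 because its probe changed most. Capitals mark the GC box and the response element. The letters are a description of these windows, and the binding of factors was not measured.
Cltb promoter, chr17:10006465-10006714 +: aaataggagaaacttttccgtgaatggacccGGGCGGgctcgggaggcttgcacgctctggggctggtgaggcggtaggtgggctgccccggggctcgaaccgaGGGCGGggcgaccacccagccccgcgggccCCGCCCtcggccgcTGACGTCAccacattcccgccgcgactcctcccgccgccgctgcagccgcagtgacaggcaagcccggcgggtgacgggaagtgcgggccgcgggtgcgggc
Ap2b1 promoter, chr10:68600473-68600722 +: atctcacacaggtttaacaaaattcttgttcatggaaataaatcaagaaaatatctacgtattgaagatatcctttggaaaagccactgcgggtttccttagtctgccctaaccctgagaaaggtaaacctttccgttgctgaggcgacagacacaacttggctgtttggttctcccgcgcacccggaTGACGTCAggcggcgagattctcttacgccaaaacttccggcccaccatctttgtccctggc
Dnm1 promoter, chr3:36046290-36046539 -: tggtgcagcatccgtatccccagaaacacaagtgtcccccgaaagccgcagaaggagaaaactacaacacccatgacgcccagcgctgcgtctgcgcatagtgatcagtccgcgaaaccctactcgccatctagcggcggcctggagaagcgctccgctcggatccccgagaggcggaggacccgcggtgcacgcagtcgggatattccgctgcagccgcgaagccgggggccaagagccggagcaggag

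Each value below is the log2 of the processed Cy3 signal of a probe minus the log2 of the 75th percentile of its array, so 0 is a signal equal to that percentile. That percentile ranged from 2570 to 2745 in Sham, from 2629 to 3464 in I/R, and from 1816 to 2785 in DHI, and 75.2% to 78.9% of probes on an array were well above its background. Levels are compared between arrays for the same probe and not between probes. Changes were tested with limma over 23747 probes, and a gene was called at the thresholds of the study, an unadjusted p under 0.05 and a fold change (FC) over 1.5. Each log2 FC is given ± SE. A Benjamini-Hochberg adjusted p under 0.05 over all probes tested was counted as well.

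Per the file headers the arrays of Sham and I/R shared 1 slide, and those of DHI a further one, so the effect of the slide cannot be told apart from that of DHI. The rats of a group were not alike. The median of 12 neuron markers (such as Rbfox3, Snap25, and Syt1) differed from the Sham mean by -3.57, -2.99, and -1.06 on I/R 1, I/R 2, and I/R 3, and by -1.87, 0.27, and -0.17 on DHI 1, DHI 2, and DHI 3. The median of 8 microglia and macrophage markers (such as Aif1, Cd68, and Itgam) differed by 4.45, 3.98, and 2.93 on the I/R arrays and by 3.77, 0.17, and 0.75 on the DHI arrays. Thus I/R 3 was nearest to Sham within its group and DHI 1 nearest to I/R. The 12 neuron, 7 astrocyte, and 7 oligodendrocyte markers used to check the tissue were well above background on all 9 arrays.

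In I/R versus Sham, 7 of the 10 genes fell and 0 rose. They were Cltb, Ap2a1, Ap2b1, Ap2m1, Epn1, Epn3, and Dnm1. Over all probes tested, 43.1% were called in this comparison, and 22.3% were called lower. The median log2 FC of the members was -0.77, against -0.10 over all probes. With the adjusted p, 5 members passed, each lower (32.4% of all probes passed in either direction and 15.8% lower), namely Cltb, Ap2a1, Ap2m1, Epn3, and Dnm1. The I/R and Sham arrays did not overlap for 8 members, each lower in I/R (62.5% of all probes in either direction and 35.8% lower). The count of calls depended on single arrays. Without any one of Sham 1, Sham 2, Sham 3, I/R 1, or I/R 2, Ap2b1 was at -0.74 to -0.62 and Epn1 at -0.66 to -0.52, and both calls were lost each time. With no scaling both were also lost, at -0.53 and -0.43, and 60.9% of the calls over all probes were higher, against 48.3%. Without any one of those arrays or DHI 3, 0 members passed the adjusted p, in fits where at most 1 of all probes passed. Without I/R 3, DHI 1, or DHI 2, 6, 8, and 7 members passed (45.4%, 51.1%, and 35.0% of all probes). In RNA from tissue of mixed cell types, fewer cells of a type and less RNA per cell cannot be told apart.

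**Figure D1:**
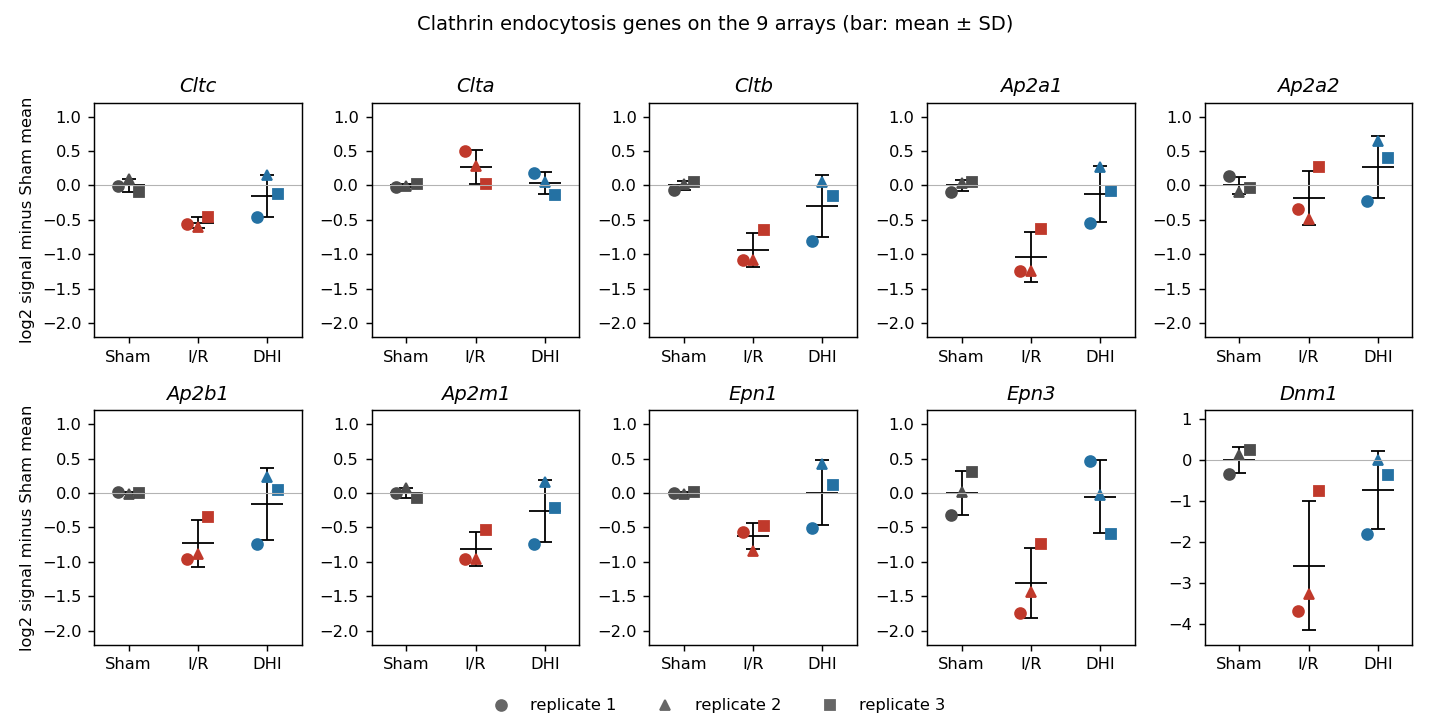
Signal of the 10 genes on each array, as log2 signal minus the Sham mean of the same probe (brighter probe), with points for arrays, shapes for replicate numbers, and black bars for the mean ± SD of 3 arrays. The axis of Dnm1 covers a wider range than the others. The I/R points lie below Sham in 8 panels, with I/R 3 nearest to Sham, and in 9 panels DHI 1 is the DHI point nearest to I/R, whereas in Epn3 DHI 1 is the highest DHI point.

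Of the coat itself, the heavy chain Cltc, the backbone of the triskelion, had values of 3.82, 3.92, and 3.73 in Sham, 3.26, 3.22, and 3.37 in I/R, and 3.36, 3.97, and 3.69 in DHI. The I/R arrays were below every Sham array, and DHI 1 was inside the I/R range. Cltc was not called in I/R versus Sham, with a log2 FC of -0.54 ± 0.18 and an FC of 1.45 that stayed under the threshold (adjusted p = 0.0509 in limma). Without Sham 3 it was called, at -0.59. The log2 FC of 0.39 ± 0.18 in DHI versus I/R (adjusted p = 0.202) was not called either.

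The light chains, which attach to the heavy chain and tune its assembly, did not move together. Cltb, which encodes light chain b, had values of 4.10, 4.19, and 4.22 in Sham, 3.08, 3.09, and 3.52 in I/R, and 3.36, 4.23, and 4.02 in DHI. The I/R arrays were again below every Sham array, and DHI 1 lay between I/R 2 and I/R 3. Cltb fell by 0.94 ± 0.24 on the log2 scale in I/R (1.92-fold, adjusted p = 0.0396). Its dimmer probe, which recognizes another stretch of the transcript, fell by 0.92 ± 0.24 (adjusted p = 0.0396). Both probes were called higher in DHI versus I/R, at 0.64 ± 0.24 and 0.66 ± 0.24, with an adjusted p of 0.196 for each. Clta, which encodes light chain a, had values of 5.11, 5.13, and 5.15 in Sham, 5.64, 5.41, and 5.14 in I/R, and 5.31, 5.18, and 4.99 in DHI. I/R 1 and I/R 2 were above Sham and I/R 3 was inside the Sham range, so the groups overlapped. Clta was not called, with a log2 FC of 0.27 ± 0.17 in I/R versus Sham (adjusted p = 0.226) and -0.24 ± 0.17 in DHI versus I/R (adjusted p = 0.337).

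AP-2 is a complex of a large alpha subunit, a large beta subunit, a medium mu subunit, and a small sigma subunit, and its alpha subunit comes from either of the genes Ap2a1 and Ap2a2. Ap2a1, whose product is the alpha form abundant in neurons, had values of -0.75, -0.63, and -0.61 in Sham, -1.91, -1.91, and -1.29 in I/R, and -1.21, -0.40, and -0.75 in DHI. Each I/R array was below each Sham and each DHI array. Ap2a1 fell by 1.04 ± 0.25 on the log2 scale in I/R (2.06-fold, adjusted p = 0.0396). It was called higher in DHI versus I/R, at 0.92 ± 0.25 (1.89-fold, adjusted p = 0.196).

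Ap2a2, the other alpha subunit, had values of 1.38, 1.15, and 1.21 in Sham, 0.91, 0.76, and 1.52 in I/R, and 1.02, 1.89, and 1.65 in DHI. The I/R arrays lay on both sides of Sham. Its log2 FC was -0.18 ± 0.28 in I/R versus Sham (adjusted p = 0.612, 95% interval -0.82 to 0.46) and 0.45 ± 0.28 in DHI versus I/R (adjusted p = 0.276), and it was not called in either.

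Ap2m1 encodes the mu subunit, which reads tyrosine-based sorting signals in cargo tails. Its values were 6.05, 6.12, and 5.98 in Sham, 5.10, 5.09, and 5.52 in I/R, and 5.31, 6.21, and 5.83 in DHI. The I/R arrays were below Sham, and DHI 1 was below I/R 3. Ap2m1 fell by 0.81 ± 0.24 in I/R (1.76-fold, adjusted p = 0.0419), and its log2 FC of 0.55 ± 0.24 in DHI versus I/R was not called (adjusted p = 0.198).

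Ap2b1 encodes the beta subunit, which binds clathrin, and its probes disagreed. The brighter probe had values of 4.15, 4.13, and 4.14 in Sham, 3.18, 3.25, and 3.80 in I/R, and 3.40, 4.37, and 4.19 in DHI. It fell by 0.73 ± 0.28 in I/R (1.66-fold) but did not pass the adjusted p (adjusted p = 0.0713). The dimmer probe had values of -1.63, -1.63, and -1.71 in Sham, -0.99, -1.29, and -1.63 in I/R, and -1.38, -1.39, and -1.46 in DHI. On that probe each I/R array was above each Sham array, I/R 3 by less than the second decimal, and the log2 FC of 0.36 ± 0.18 was not called (adjusted p = 0.141). The mean of both probes gave -0.19 in I/R versus Sham, which was not called.

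The epsins carry an ENTH domain that inserts into the membrane, and Epn1 is the broadly expressed brain form, whereas Epn3 is known from epithelia. Epn1 had values of 0.89, 0.88, and 0.90 in Sham, 0.33, 0.05, and 0.41 in I/R, and 0.38, 1.31, and 1.00 in DHI. The Sham arrays lay together, and each I/R array was below them. Epn1 fell by 0.63 ± 0.24 in I/R (1.54-fold, adjusted p = 0.0709) and was called higher in DHI versus I/R, at 0.63 ± 0.24 (adjusted p = 0.196).

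Epn3 had values of -1.41, -1.07, and -0.78 in Sham, -2.83, -2.53, and -1.83 in I/R, and -0.62, -1.12, and -1.68 in DHI. The I/R arrays were below every Sham and every DHI array. Within DHI, DHI 1 was the highest for Epn3. Epn3 fell by 1.31 ± 0.35 in I/R (2.47-fold, adjusted p = 0.0400) and was called higher in DHI versus I/R, at 1.26 ± 0.35 (2.39-fold, adjusted p = 0.196). The dimmer Epn3 probe had values from -5.56 to -4.88 over the 9 arrays and was not called, at -0.03 ± 0.16 in I/R versus Sham (adjusted p = 0.873) and 0.36 ± 0.16 in DHI versus I/R (adjusted p = 0.196). The probes thus disagreed in I/R versus Sham, where the mean of both gave -0.67 and stayed called. On the dimmer probe each DHI array was above each I/R array. The summed signal of 7 choroid plexus and epithelial markers (such as Ttr and Folr1), in multiples of the 75th percentile of the array, was 0.807 to 1.45 in Sham, 1.56, 2.77, and 94.2 on I/R 1, I/R 2, and I/R 3, and 138, 7.76, and 74.8 on DHI 1, DHI 2, and DHI 3. I/R 3 and DHI 1, the highest of their groups for these markers, were also the highest for Epn3. In contrast, DHI 3 was above DHI 2 for the markers and below it for Epn3. The Sham arrays were the lowest for the summed signal of the markers and above every I/R array for Epn3. By the median of the 7 markers, DHI 2 was lowest, at -0.23 from the Sham mean, against -0.07, -0.22, and 0.43 on Sham 1, Sham 2, and Sham 3. The part of the markers in the result was not tested. Of the 7, 3 rose and 0 fell between Sham and I/R, and 0 were higher and 1 was lower by the same thresholds in DHI versus I/R.

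Dnm1, the GTPase that cuts vesicles from the membrane at synapses, changed most. Its values were -0.02, 0.44, and 0.58 in Sham, -3.36, -2.94, and -0.44 in I/R, and -1.47, 0.32, and -0.04 in DHI. I/R 1 and I/R 2 were far below Sham, and I/R 3 was below it by less. DHI 1 was lower than I/R 3, whereas DHI 2 and DHI 3 were at or near the Sham values. Dnm1 fell by 2.58 ± 0.77 in I/R (5.97-fold, adjusted p = 0.0426), with a 95% interval of -4.36 to -0.80. It was not called by the methods' t-test. Between DHI and I/R it was called higher, at 1.85 ± 0.77 (adjusted p = 0.196), with an interval of 0.07 to 3.63. That interval also draws on the Sham arrays, whose SD for Dnm1 was 0.31, against 1.58 in I/R and 0.95 in DHI. With 1 array left out, the I/R versus Sham value ran from -3.48 (without I/R 3) to -2.02 (without I/R 1) and stayed called, whereas the value for DHI versus I/R ran from 1.29 (without I/R 1) to 2.75 (without I/R 3) and kept its call only without I/R 3 or DHI 1.

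**Figure D2:**
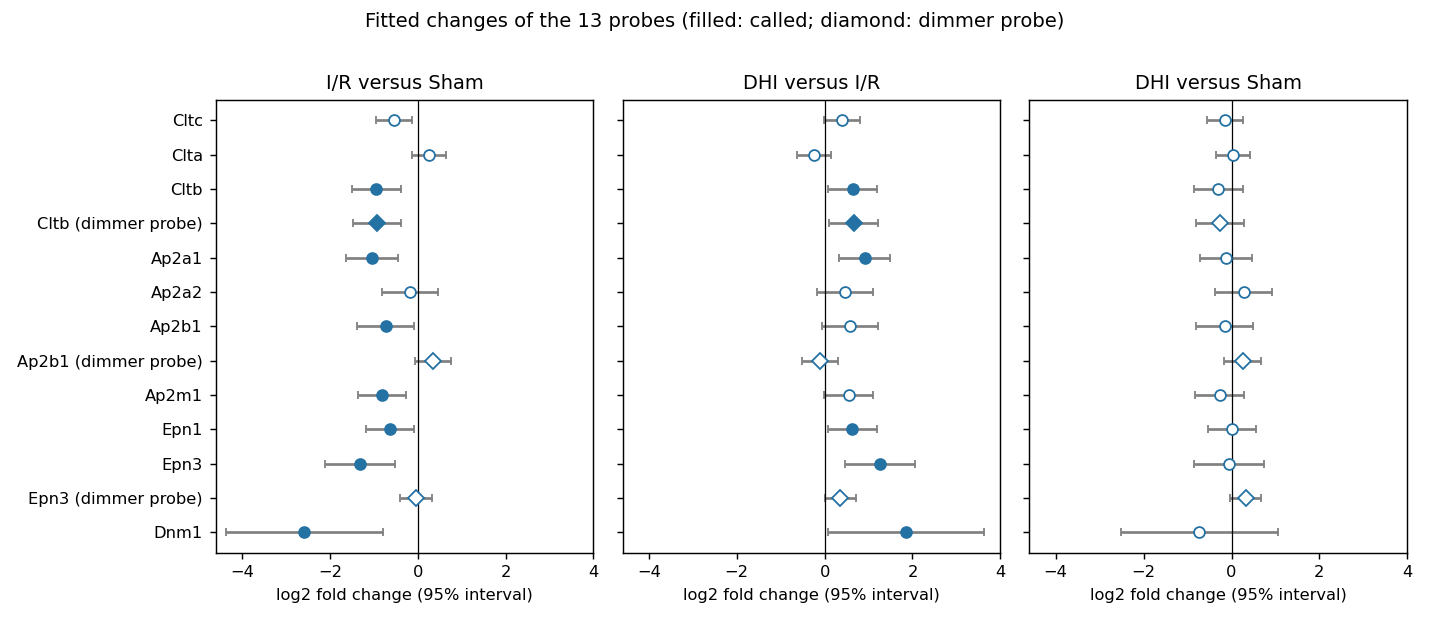
Fitted log2 FC of the 13 probes in the 3 comparisons, with 95% intervals as bars. Filled symbols were called (p under 0.05 and FC over 1.5) and diamonds are the dimmer probes. The symbols of 7 genes are filled on the lower side in I/R versus Sham, those of 5 genes on the higher side in DHI versus I/R, and 0 are filled in DHI versus Sham.

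In DHI versus I/R, 5 of the 10 members were called, each higher (21.9% of all probes called, 11.5% higher). They were Cltb, Ap2a1, Epn1, Epn3, and Dnm1. Their log2 FC ranged from 0.63 for Epn1 to 1.85 for Dnm1, and the median of the 10 members was 0.60, against 0.10 over all probes. With the adjusted p, 0 members passed in limma, where the smallest adjusted p of a member was 0.196 and 0.00421% of all probes passed. At an unadjusted p under 0.05 there were 5 (25.4% of all probes), and the methods' t-test called 2, Ap2a1 and Epn3 (1.97% of all probes). With the Sham arrays left out of the limma fit, Cltb, Epn1, and Dnm1 were not called (unadjusted p = 0.070, 0.070, and 0.080). The arrays did not overlap for 2 members, Ap2a1 and Epn3, each higher in DHI (9.54% of all probes in either direction, 5.52% higher). Ap2a1 and Epn3 are also the members that the study listed for endocytosis, which it chose from the same rats in this comparison, so their direction is not independent evidence. The I/R arrays serve both I/R versus Sham and DHI versus I/R, so an array of I/R that is low lowers one difference and raises the other.

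Single arrays moved these counts. DHI 1 was the DHI array nearest to the I/R mean for 9 of the 10 members and lay within the I/R range for 8. I/R 3 was the I/R array nearest to Sham for 10 of 10. Without DHI 1, 8 members were called (45.2% of all probes), 9 passed the adjusted p (44.7% of all probes), and the arrays did not overlap for 9 (66.9% of all probes). Without I/R 3, 8 were called (32.5% of all probes), 0 passed the adjusted p, and the arrays did not overlap for 10 (52.1% of all probes). Leaving out DHI 2, DHI 3, I/R 1, or I/R 2 left 2 called (3.95%, 4.75%, 5.82%, and 6.99% of all probes), and leaving out any of the Sham arrays left 4 (16.0% to 16.5% of all probes). The members gained without DHI 1 or I/R 3 were Ap2a2, Ap2b1, and Ap2m1, and Ap2a1 and Epn3 were the only members called in DHI versus I/R under each omission of 1 array.

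The scaling between arrays also mattered in DHI versus I/R. With no scaling, the median log2 FC of all probes moved from 0.10 to -0.36, and 4.801% of the calls over all probes were higher, against 52.2% with the 75th percentile. In that setting 1 member was called, Clta, at -0.70 and so lower, and Ap2a1 and Epn3 were at 0.46 and 0.79 and not called. Normexp background correction put the share of higher calls at 63.7%. With quantile normalization the members called were 3, Ap2a1, Epn3, and Dnm1.

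In DHI versus Sham, 0 of the 10 members were called in limma (3.58% of all probes), 0 passed the adjusted p (0% of all probes), and 0 had an unadjusted p under 0.05 (5.45% of all probes). The methods' t-test also called 0 (1.89% of all probes). The median log2 FC was -0.14, against 0.02 over all probes. By the brighter probes, the arrays overlapped for each member (18.6% of all probes did not overlap). Without DHI 1 they did not overlap for 3 members (34.4% of all probes), without DHI 2 for 4 (41.4%), and without Sham 1 or DHI 3 for 1 (33.9% and 25.0%). On the dimmer probes of Ap2b1 and Epn3, each DHI array was above each Sham array. Their log2 FC of 0.25 ± 0.18 and 0.32 ± 0.16 was not called. The dimmer Cltb probe overlapped. The 95% intervals of the difference were wide. Dnm1 was at -0.73 (-2.51 to 1.05), Cltb at -0.30 (-0.86 to 0.26), and Ap2a1 at -0.12 (-0.71 to 0.46). Epn1 was at 0.01 (-0.54 to 0.56). Of the mean levels, 7 members were lower in DHI than in Sham and 3 were higher, Ap2a2, Clta, and Epn1. Over all probes 70.4% of the calls in this comparison were higher, against 37.5% with quantile normalization and 5.21% with no scaling.

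Related members were compared within each array, where a factor common to the array cancels. The difference Ap2a1 minus Ap2a2 averaged -1.91 ± 0.19 (SD, n = 3) on Sham arrays, -2.77 ± 0.08 on I/R arrays, and -2.31 ± 0.08 on DHI arrays. The 3 groups did not overlap, and each of the 3 comparisons gave an exact two-sided permutation p of 0.1, the smallest that 3 against 3 arrays can give (adjusted p = 0.225 over the 9 comparisons made). DHI therefore lay between the others, at 0.46 above I/R and 0.40 below Sham on this scale.

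The difference Clta minus Cltb averaged 0.96 ± 0.05 on Sham arrays, 2.17 ± 0.48 on I/R arrays, and 1.29 ± 0.57 on DHI arrays. The I/R mean exceeded that of Sham by 1.21 without overlap (exact permutation p = 0.1, adjusted p = 0.225). DHI 2 and DHI 3 were at 0.95 and 0.97, inside the Sham range, and DHI 1 was at 1.95, inside the I/R range, so that the difference of -0.88 between DHI and I/R overlapped (exact permutation p = 0.2, adjusted p = 0.3). The difference Epn1 minus Epn3 averaged 1.98 ± 0.31 on Sham arrays, 2.66 ± 0.46 on I/R arrays, and 2.04 ± 0.91 on DHI arrays. I/R 3 lay within the Sham range, and the exact permutation p was 0.2, 0.5, and 0.9 for I/R against Sham, DHI against I/R, and DHI against Sham, respectively.

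**Figure D3:**
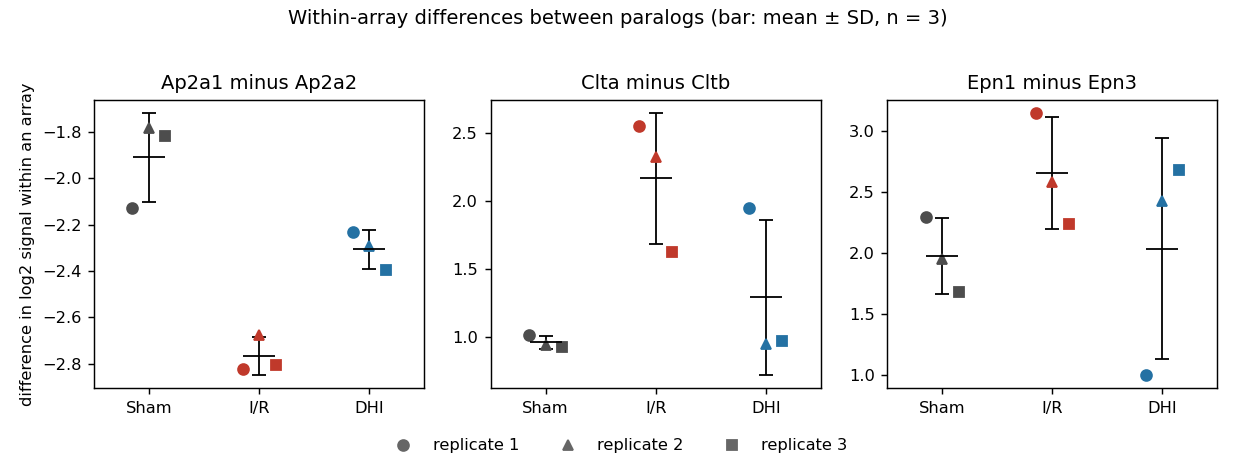
Differences in log2 signal between 2 related genes on the same array, with points for arrays, shapes for replicate numbers, and bars for the mean ± SD of 3 arrays; each panel has its own axis. The 3 groups of Ap2a1 minus Ap2a2 do not overlap (means -1.91, -2.77, and -2.31), whereas in Clta minus Cltb DHI 1 lies among the I/R arrays at 1.95.

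In I/R versus Sham the neuron markers fell, as most members did, and the microglia and macrophage markers rose. Of the 12 neuron markers, 12 fell in I/R versus Sham, with a median log2 FC of -2.54 and a summed signal of 114 to 121 in Sham, 12.4 to 60.6 in I/R, and 40.4 to 126 in DHI. Between DHI and I/R 10 of them were called higher, with a median of 1.86. Of the 8 microglia and macrophage markers, 7 rose in I/R versus Sham, with a median of 3.78 and a summed signal of 12.2 to 14.0 in Sham, 86.4 to 244 in I/R, and 16.8 to 131 in DHI, and 6 were called lower in DHI versus I/R. Dnm1 lay close to the neuron median on the I/R and DHI arrays, at -3.69, -3.27, and -0.77 from its Sham mean in I/R and at -1.80, -0.01, and -0.37 in DHI. The part of both marker lists in the results of the members was not tested. Of the other lists, 4 astrocyte markers rose and 2 fell of 7, 1 oligodendrocyte marker rose of 7, and 3 endothelial markers rose of 7 in I/R versus Sham. Of the 4 red blood cell markers, 1 rose and 3 fell in I/R versus Sham, and their summed signal was 3.75 to 29.7 in Sham, 2.33 to 3.36 in I/R, and 7.35 to 38.9 in DHI.

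**Figure D4:**
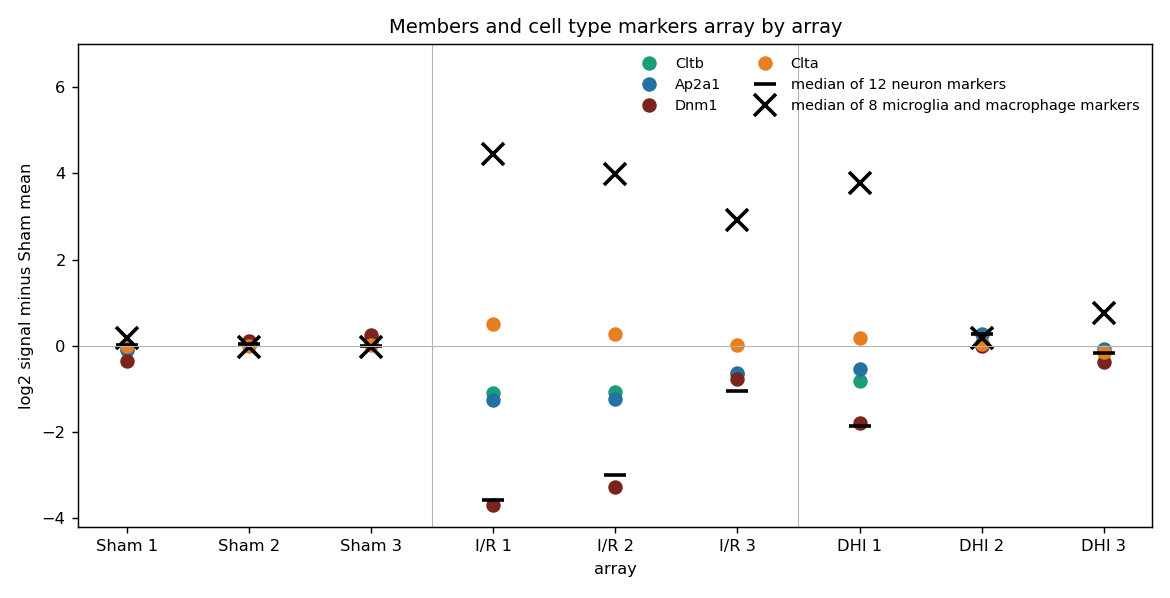
Log2 signal minus the Sham mean on each array for 4 members, with the median of 12 neuron markers (dashes) and of 8 microglia and macrophage markers (crosses). Dnm1 lies next to the neuron median on the I/R arrays, from -3.69 on I/R 1 to -0.77 on I/R 3, and on DHI 1. On DHI 2 it is at -0.01, against 0.27 for the neuron median. Cltb and Ap2a1 follow at smaller size in I/R, and Clta runs the other way there, at 0.51 on I/R 1.

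Beyond the 10 members, 46 further genes of the clathrin route were on the array and tested, in 4 lists. Of these, 9 rose and 19 fell in I/R versus Sham (20.8% of all probes were called higher and 22.3% lower), with a median log2 FC of -0.31, and 8 and 16 passed the adjusted p. Between DHI and I/R 12 were called higher and 4 lower (11.5% and 10.5% of all probes), with a median of 0.29, and 0 passed the adjusted p. In DHI versus Sham 0 were called.

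Among 18 other coat and adaptor genes, 2 rose and 7 fell in I/R versus Sham. Clint1, an epsin-related adaptor of the trans-Golgi network, fell by 2.51 ± 0.71 (adjusted p = 0.0405), and Snap91, the neuronal clathrin assembly protein AP180, fell by 2.07 ± 0.64 (adjusted p = 0.0437). The genes that rose were Necap2, which binds adaptor complexes, at 1.77 ± 0.40 (adjusted p = 0.0396), and Picalm, the broadly expressed relative of AP180, at 0.89 ± 0.26 (adjusted p = 0.0418), though the mean of all Picalm probes was 0.23 and not called. The small subunit of AP-2, Ap2s1, was at -0.24 and not called. Fcho1, which nucleates clathrin pits, was called higher in DHI versus I/R at 1.60 ± 0.59, and Epn2, the epsin outside the members, at 0.71 ± 0.27, whereas Necap2 was called lower at -0.99 ± 0.40 (adjusted p = 0.196 for each).

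The cargo adaptors, of which 6 were tested, split in I/R versus Sham. Dab2, an adaptor for lipoprotein receptors, rose by 2.78 ± 0.83 (adjusted p = 0.0423), Arrb2, beta-arrestin 2, rose by 0.86 ± 0.27 (adjusted p = 0.0444), and Numbl fell by 1.27 ± 0.50 (adjusted p = 0.0768). Of the 6, 0 were called in DHI versus I/R.

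Of 12 genes for membrane bending and scission, 4 rose and 4 fell in I/R versus Sham. Those that fell were Dnm3, a dynamin found in neurons, at -2.21 ± 0.79 (adjusted p = 0.0607), Pacsin1, the neuronal syndapin, at -2.13 ± 0.59 (adjusted p = 0.0405), Sh3gl2, endophilin A1, at -1.83, and Amph, amphiphysin, at -1.80. Those that rose were Snx9 and Snx18, sorting nexins that bind dynamin, at 1.52 ± 0.42 (adjusted p = 0.0404) and 1.49 ± 0.41 (adjusted p = 0.0405), Pacsin2 at 0.61, and Dnm2, the ubiquitous dynamin, at 0.90 ± 0.29 (adjusted p = 0.0456). Dnm1 and Dnm2 were thus called in opposite directions in I/R versus Sham. Pacsin1 was called higher in DHI versus I/R at 1.65 ± 0.59 and Amph at 1.48 ± 0.58, while Snx9 and Snx18 were called lower at -1.10 ± 0.42 and -0.99 ± 0.41 (adjusted p = 0.196 for each).

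Of 10 genes for uncoating, the lipid PIP2, and coat kinases, 7 fell and 1 rose in I/R versus Sham, with a median of -1.12. Those that fell included the lipid kinases Pip5k1a, Pip5k1b, and Pip5k1c, which make PIP2. Aak1, the kinase that phosphorylates Ap2m1, fell by 2.32 ± 0.65 (adjusted p = 0.0405), and Dnajc6, the neuronal auxilin that recruits Hsc70 to coats, fell by 1.90 ± 0.60 (adjusted p = 0.0453). The gene that rose was Bmp2k, a kinase related to Aak1, at 1.98 ± 0.42 (adjusted p = 0.0396). Between DHI and I/R 5 of the 10 were called higher, among them Aak1 at 1.82 ± 0.65 and Dnajc6 at 1.42 ± 0.60, and 1 was called lower, Bmp2k at -1.30 ± 0.42 (adjusted p = 0.196 for each).

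Neighboring routes served for comparison. Of 13 subunits of AP-1, AP-3, and GGA adaptors, which act at the Golgi and endosomes, 1 rose and 4 fell in I/R versus Sham, including Gga3 at -1.19 ± 0.35 (adjusted p = 0.0424), Ap1s1 at -1.02 ± 0.31 (adjusted p = 0.0437), and Ap3b1, the gene that rose, at 1.54 ± 0.38 (adjusted p = 0.0396). Between DHI and I/R 0 of the 13 were called higher and 2 lower, Ap3b1 at -0.99 ± 0.38 and Ap1s2 at -0.65 ± 0.26 (adjusted p = 0.196 for each). Of 7 caveolar coat genes, which serve clathrin-independent uptake, Cav1, Cav2, Ptrf, and Ehd2 rose and 0 fell, with Ehd2 at 2.19 ± 0.50 (adjusted p = 0.0396). Cav3 was well above background on 1 of the 3 Sham arrays and entered the test only through the I/R arrays. It is therefore not counted as a rise, and no size is given for it. Ehd2 was called lower in DHI versus I/R at -1.36 ± 0.50 (adjusted p = 0.196).

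Of 11 listed endocytic cargo receptors, 4 rose and 3 fell in I/R versus Sham (20.8% of all probes were called higher and 22.3% lower). Vldlr, a receptor for reelin and lipoproteins, fell by 1.23 ± 0.21 (adjusted p = 0.0396), whereas Lrp1 rose by 0.91 ± 0.28 (adjusted p = 0.0428) and the macrophage mannose receptor Mrc1 by 2.63 ± 0.97 (adjusted p = 0.0655). Its signal stood well above background in each Sham and I/R rat and in 1 DHI rat. With normexp its log2 FC was 1.199, and without Sham 2, Sham 3, I/R 1, or I/R 2 it was not called. Between DHI and I/R 3 were called higher and 0 lower (11.5% and 10.5% of all probes), including Tfrc, the transferrin receptor, at 0.77 ± 0.26 (adjusted p = 0.196).

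Genes whose pattern over the 9 arrays was most like that of a member were found by the root-mean-square difference of mean-centered log2 values among 14557 other genes. For Dnm1, which varied with an SD of 1.40, these were Lrfn5 (difference 0.134), Ckmt1 (0.160), and Mal2 (0.161). For Cltc (SD 0.276) they were Ndufb2 (0.0436), Ctbp1 (0.0460), and Letm1 (0.0499). For Ap2a1 (SD 0.531) they were Gna11 (0.0694), Aldoal1 (0.0779), and Tubb4b (0.0800). For Epn3 (SD 0.712) they included Spdef (0.293) and Stk39 (0.360), whose distances were a larger share of the SD of the member than in the other 3.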

How the data were processed

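RNA of infarcted hemispheres was measured on 9 one-color Agilent arrays (3 Sham, 3 I/R, and 3 DHI), with groups and replicate numbers taken from the sample labels. The authors deposited the Feature Extraction output of every array (version 10.7.1.1, per the submitters' processing notes), which holds a background-corrected intensity for each spot without scaling across arrays. A series table of log2 values, deposited by the authors, served as an alternative, and it followed quantile-normalized intensities (Pearson's r of 0.9995 over probes for every array). The number of value columns not used was 0.

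Signals of the spots of a probe, other than control and outlier spots, were averaged on the log2 scale after division by the 75th percentile of the array. Testing was limited to probes well above background on all 3 arrays of some group (23747 of 30367). One limma model (limma 3.58.1, lmFit and eBayes, in R 4.3.3 with version 1.17.8 of data.table) covered the 9 arrays with 6 residual degrees of freedom, and p-values were Benjamini-Hochberg adjusted over the tested probes. These steps had first been tested on simulated data. Related members were compared by exact permutation tests. The number of arrays limits the precision.

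The members, gene lists, and tests were chosen with earlier results of these data known. Outside the members, the genes named were up to 2 with the largest rise and 2 with the largest fall among those called, per list and comparison, and the 3 genes most like Dnm1, Cltc, Ap2a1, and Epn3. Where a count was 5 or fewer, further genes were named after their values were seen, as were Dnm2, Ap2s1, and the other genes given without SE. Alternatives changed the scaling (quantile, none), the background correction (normexp, offset 50), the source (the authors' table), the filter (none, or above background on all 9 arrays), the model (2 groups at a time, weights for arrays, a block for replicate number), the test (the methods' t-test), the probe (mean over a gene), or left out an array. Experiments of the study other than the arrays were not analysed here. Values of 2 genes outside the members that the naming rule chose are not reported here.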

Additional observations from a re-analysis of the deposited data

How the results depend on the processing

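Counts of members called, past the adjusted p, and without overlap were recomputed under each alternative. Numbers in parentheses are the probes of the whole array that met the same rule. In I/R versus Sham the 7 calls (10241 of 23747 probes) stayed between 5 and 8 (7517 to 13243 probes). The 5 members past the adjusted p (7696 probes) became 0 with no scaling (1 probe) and 3 with no filter on dim probes (5042 probes). With only the 2 groups compared, a fit within the slide of Sham and I/R, they became 8 (11016 probes). They became 10 with array weights (19545 probes) and 0 to 8 when 1 array was left out (0 to 12140 probes). The 8 without overlap became 5 with no scaling. For counts without overlap under changed scaling or the authors' table, the share of all probes is not given here. Those counts therefore do not set the members apart from other probes. In DHI versus I/R the 5 calls (5211 probes) became 3 with quantile normalization (5069), 1 with no scaling (7436), and 2 with only the 2 groups compared (2149). They became 8 with array weights (12217), 2 with the methods' t-test (469), and 2 to 8 when 1 array was left out (939 to 10737). The 0 past the adjusted p became 10 with array weights (20945 probes) and 0 to 9 when 1 array was left out (0 to 10621 probes). The 2 without overlap became 1 with no scaling and 2 to 10 when 1 array was left out (9.54% to 66.9% of all probes). In DHI versus Sham the 0 called became 1 with array weights (4175 probes), and the 0 past the adjusted p became 5 with array weights (11887 probes). With no scaling, where the median log2 FC of all probes was -0.25, the 0 without overlap became 7. With quantile normalization and with the authors' table they became 1. When 1 array was left out they became 0 to 4 (18.6% to 41.4% of all probes). The weights came from an iteration that stopped before it converged, and 20945 of 23747 probes passed the adjusted p with them in DHI versus I/R. The cause of these shifts was not tested. With no scaling these values turned sign: Ap2a2 to 0.015 (I/R versus Sham) and -0.0059 (DHI versus I/R), Cltc to -0.069 (DHI versus I/R), the dimmer Epn3 probe to 0.16 (I/R versus Sham) and -0.10 (DHI versus I/R), and, in DHI versus Sham, Clta to -0.23, Epn1 to -0.26, and the dimmer Ap2b1 probe to -0.013. Other turns in DHI versus Sham were Clta at -0.058 with quantile normalization and the authors' table and -0.14 with array weights, Ap2b1 at 0.047 with array weights and with the mean of its probes, and Epn3 at 0.14 with the mean of its probes. When 1 array was left out, values that turned sign ran, in DHI versus Sham, from -0.32 to 0.089 for Ap2a1, -0.35 to 0.14 for Ap2b1, -0.045 to 0.12 for Clta, -0.30 to 0.0094 for Cltc, -0.20 to 0.27 for Epn1, and -0.31 to 0.22 for Epn3. The dimmer Ap2b1 probe ran from -0.27 to 0.055 in DHI versus I/R, and the dimmer Epn3 probe from -0.085 to 0.016 in I/R versus Sham. The replicate number as a block left the counts of members at 7, 5, and 0 called in the 3 comparisons (10410, 6313, and 1280 probes). The labels do not say whether the numbers pair the samples, and the values do not settle it. Correlations of same-numbered deviations ran from -0.29 to 0.15 in I/R versus Sham, from -0.34 to 0.48 in DHI versus I/R, and from 0.02 to 0.30 in DHI versus Sham. Of the 9 arrays, 5 correlated best with an array of their own number. Of the recomputed log2 FC values of the members, 679 kept their direction and side of the threshold, 54 lost a call, 13 gained one, and 25 turned sign. Of the values of other named genes, 654 kept both and 123 lost a call. The calls in DHI versus I/R lost most often were those of Dnajc6 (in 12 of 20 alternatives), Dnm1 (10), and Cltb, Snx18, and Necap2 (9 each), and Snx9 lost its call in 6. Numbl in I/R versus Sham lost its call in 8. Over all probes the split of calls in I/R versus Sham was 48.3% higher, and 60.9% with no scaling.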
